A study of Drosophila melanogaster with 2 samples.

Results

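Onecut is a transcription factor with 1 cut domain and a homeodomain, and the data describe where a tagged copy of it sat in the genome of whole *Drosophila melanogaster* embryos. The subject here is 300 of its binding summits, which lie between protein-coding genes but close to a promoter. Each summit, the base of highest signal within a peak, was outside every protein-coding gene body and more than 500 and at most 2000 bp from the nearest transcription start site (TSS) of such a gene. The 300 summits were 4.45% (95% Wilson interval 3.98 to 4.96) of the 6747 summits on the 6 chromosome arms. The flies of the strain onecut-GFP carried an insertion that makes Onecut fused to eGFP, and an anti-GFP antibody pulled down its chromatin. Embryos were collected at 0 to 24 hours as whole organisms, so all cell types and nearly all embryonic stages are mixed. Both libraries, biological replicates 1 and 2, belong to 1 group with the same strain, age and treatment, so no condition was contrasted. Fewer cells with bound Onecut and less binding per cell cannot be told apart in such material.

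Onecut proteins are a conserved family that includes the mammalian HNF6. They bind short sites with the core ATCGAT or ATTGAT, written together as ATYGAT with Y for C or T. In flies, Onecut is best known from the nervous system, where neurons and photoreceptors carry it. Regulatory DNA in the compact fly genome often lies just upstream of promoters or at the starts of non-coding RNAs.

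The windows reaching 50 bp to either side of the strongest summits show the site directly. The 7 that follow are among those of highest deposited signal that hold ATYGAT, printed on the plus strand of dm6. Capitals mark ATYGAT or its reverse complement, and the summit is the base in the middle. Each is named by the gene whose protein-coding TSS was nearest.
CG15629, chr2L:4811858-4811958: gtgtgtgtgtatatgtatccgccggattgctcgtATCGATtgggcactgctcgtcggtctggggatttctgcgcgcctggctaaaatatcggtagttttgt
CG14186, chr3L:20104779-20104879: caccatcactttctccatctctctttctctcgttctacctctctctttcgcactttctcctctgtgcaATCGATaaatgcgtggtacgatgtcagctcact
MESR6, chr3L:19091895-19091995: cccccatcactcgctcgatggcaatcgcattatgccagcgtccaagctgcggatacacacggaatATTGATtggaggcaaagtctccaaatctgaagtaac
IA-2, chr2L:1048885-1048985: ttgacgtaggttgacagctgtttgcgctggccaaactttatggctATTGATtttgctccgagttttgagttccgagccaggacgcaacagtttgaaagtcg
nrv3, chr2L:21378112-21378212: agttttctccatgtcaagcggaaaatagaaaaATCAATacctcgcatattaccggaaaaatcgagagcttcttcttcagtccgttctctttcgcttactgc
cpo, chr3R:17918250-17918350: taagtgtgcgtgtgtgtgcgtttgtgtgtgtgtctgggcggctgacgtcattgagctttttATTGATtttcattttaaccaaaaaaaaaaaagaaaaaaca
CG14315, chr3R:18160315-18160415: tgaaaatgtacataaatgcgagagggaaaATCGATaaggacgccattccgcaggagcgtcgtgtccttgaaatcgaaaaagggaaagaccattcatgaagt

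The marked sites are of both forms, ATCGAT, which reads the same on both strands, and ATTGAT or its reverse complement. The next windows are those of the 3 strongest summits that hold no ATYGAT, printed for contrast, so nothing is in capitals.
sp3, chr3R:21520309-21520409: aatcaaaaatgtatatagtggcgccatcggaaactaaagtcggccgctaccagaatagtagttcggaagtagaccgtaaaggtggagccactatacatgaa
jp, chr2L:9567457-9567557: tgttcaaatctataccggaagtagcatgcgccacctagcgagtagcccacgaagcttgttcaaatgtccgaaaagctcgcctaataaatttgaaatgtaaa
CG3149, chrX:5696478-5696578: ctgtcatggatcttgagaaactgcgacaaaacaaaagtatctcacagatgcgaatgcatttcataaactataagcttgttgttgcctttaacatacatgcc

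The summit with the highest signal of all 300 lay 1101 bp upstream of CG15629, inside a non-coding gene and 37 bp from the start of lncRNA:CR45297. Its peak, at chr2L:4811656-4812117, had a signal of 2105 in the list made from both replicates and ranked at position 14 of the 6747. In the replicates' own lists its signal was 805 in replicate 1 and 1309 in replicate 2. The next was CG10934, with a summit 694 bp upstream of its TSS on arm 2R, a signal of 1638, and values of 660 and 993 in replicates 1 and 2. Its window also held ATCGAT. The CG14186 summit had a signal of 1236 and lay 1002 bp upstream and, like the first, inside a non-coding gene. Its replicate values were 512 and 732. The summit 725 bp upstream of MESR6, a gene found as a modifier of Ras signalling, had a signal of 1227, with 429 in replicate 1 and 780 in replicate 2. The replicates' lists may be on different scales, so their values were read against the median ratio of replicate 2 to replicate 1 over the whole list, 1.29. In each of these first 4 the ratio was above that median.

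The fifth, upstream of sp3 by 569 bp, had a signal of 1092 with no ATYGAT. Its values were 605 in replicate 1 and 491 in replicate 2, a ratio below the list median. LPCAT, a phospholipid acyltransferase gene, followed at 1061 with a summit 1974 bp upstream that lay 44 bp from the start of lncRNA:CR45540, and its replicate values were 356 and 704. IA-2, which encodes a dense-core vesicle protein of the tyrosine phosphatase family, had a summit at 882 bp with a signal of 880 and replicate values of 340 and 541. The summit 1838 bp upstream of nrv3, a subunit of the sodium pump of the nervous system, had a signal of 874, and its replicate values were 320 and 545. All 3 of these held ATYGAT, and the ratio was above the list median in each.

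The summits of jp, the fly junctophilin gene, and CG3149 held no ATYGAT, with signals of 851 and 842. Their replicate values were 443 and 413 for jp and 414 and 402 for CG3149, both with a ratio below the list median. The RNA-binding protein gene cpo had a summit 1532 bp upstream with a signal of 837, at 280 in replicate 1 and 541 in replicate 2. CG14315 was the 1 gene of the first 20 whose summit lay beyond its 3' end. That summit had a signal of 807, stood 441 bp from the start of asRNA:CR45104 and had replicate values of 319 and 497. DNAlig3, a DNA ligase gene, had a signal of 798. Its summit lay 1293 bp upstream, in the 437 bp gap between the facing 3' ends of Sol1 and Cyp9f2. CG13898 had a signal of 786, GCS2alpha, a glucosidase subunit of glycoprotein folding, had 775, and Pits had 691. Asator, a tau tubulin kinase gene on chromosome 4, had a summit signal of 681. The remaining genes of the first 20 were tara, a trithorax-group gene, at 647, RasGAP1, a Ras inhibitor, at 602, and Boot at 534. The summits of tara and Boot held no ATYGAT.

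Of these 20, 15 held ATYGAT, 19 were upstream of the gene with the nearest TSS, and all 20 overlapped a peak in both replicates' own thresholded lists. A non-coding start lay within 500 bp of 5 of them. The gene with the nearest TSS had a promoter summit of its own in 5 of the 20. Of the 300, 4 were among the first 100 summits of the whole list, 19 among the first 500 and 39 among the first 1000. The 300 made up 4.45% of that list.

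The signal is the height that the authors' list gives each peak, on a scale that is not stated, and it was compared only within that list. Over the 300 summits it had a median of 153.1, with quartiles of 106.8 and 227.0 and a range from 18.1 to 2105. The medians were 160.7 for the 2980 promoter summits (within 500 bp of a protein-coding TSS), 142.5 for the 2513 in introns, and 135.7 for the 782 distal intergenic ones (over 2000 bp away). Of the 300, 156 or 52.0% exceeded the median of the whole list, beside 50.0% of all summits by construction. The share was 43.5% among distal intergenic summits, an odds ratio of 1.41 (95% interval 1.08 to 1.84; Fisher's exact test, two-sided, adjusted p = 0.0493 over 7 comparisons). That call was lost in the pooled list, where the odds ratio was 1.25 with an adjusted p of 0.188, and it was lost in each replicate's own list. The list without replicate 1 gave an odds ratio of 1.47 with an adjusted p of 0.0656, and that without replicate 2 gave 1.25 with 0.245. Against promoter summits the odds ratio was 0.905 (0.713 to 1.15; exact test, adjusted p = 0.601), and against intronic summits it was 1.24 (0.975 to 1.58; adjusted p = 0.202). Windows in 1 list are not biological replicates, so each such p describes that list of peaks and not a spread between embryos.

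**Figure D1:**
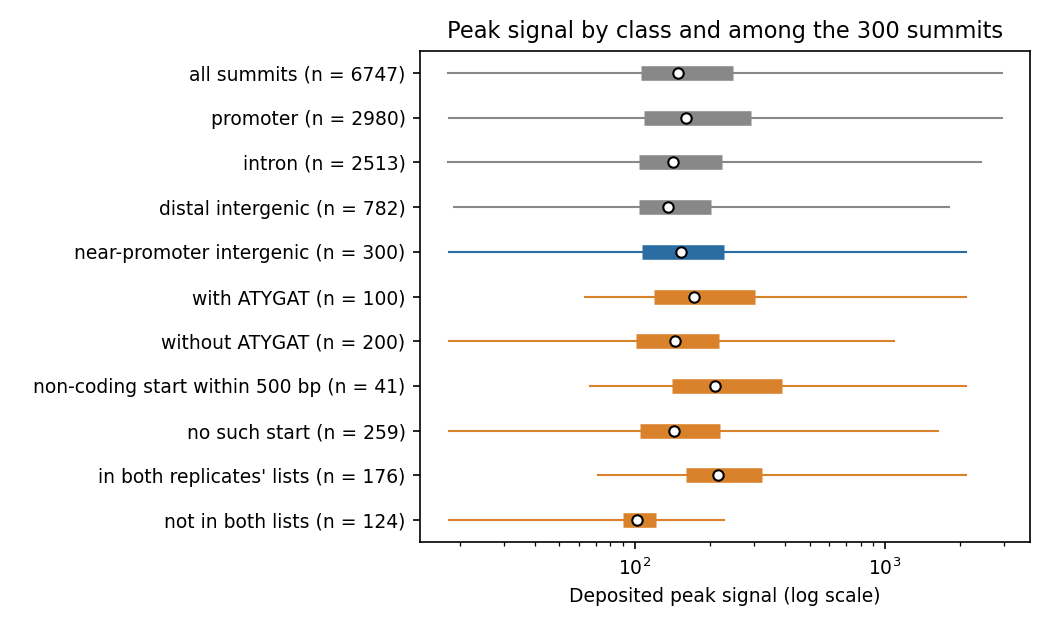
Deposited peak signal (log scale) by class of summit and for subsets of the 300 near-promoter intergenic summits; thin lines span the lowest to the highest value, thick bars the quartiles, and circles are medians. The median of the 300 is 153.1, between those of promoter summits (160.7) and distal intergenic summits (135.7), and the 41 with a non-coding start within 500 bp have a median of 209.1.

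How often a summit fell in such sequence was expressed per Mb, because the classes cover unequal lengths. The sequence that could hold one of the 300 added up to 6.01 Mb, and it carried 49.9 summits per Mb (exact 95% Poisson interval 44.4 to 55.9, counting error only). All sequence of the arms together carried 50.5 per Mb, so the near class was close to the density of the whole list. It was 4.50% of that sequence and held 4.45% of the summits. Distal intergenic sequence carried 23.04 (21.5 to 24.7), so the near class was 2.17 times as dense as that. Introns carried 47.8 (45.9 to 49.7), and both intervals overlap. Promoter windows carried 194.4 (187.4 to 201.5). Within intergenic sequence the density fell from 329.9 per Mb within 500 bp to 56.8 from there to 1000 bp, and then to 47.7 up to 1500 bp and 43.6 up to 2000 bp. Beyond the limit it was 37.4 up to 2500 bp and 29.2 from 2500 to 3000 bp.

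Just outside the inner limit, in the last 100 bp before 500 bp, there were 51 summits with a median signal of 154.3, and just inside, up to 600 bp, there were 47 with a median of 141.2. At the outer limit, 14 summits lay in the last 100 bp before 2000 bp with a median of 135.5, and 20 lay in the 100 bp after it with a median of 148.7. The median distance of the 300 was 1102 bp. By arm, 67 lay on 2L, 52 on 2R, 59 on 3L, 67 on 3R, 5 on chromosome 4 and 50 on X. The density on the 5 long arms ranged from 45.8 per Mb on 3R to 56.1 on 2L, with overlapping intervals. Chromosome 4 had 85.0 per Mb, with an interval of 27.6 to 198.4 that rests on its 5 summits.

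**Figure D2:**
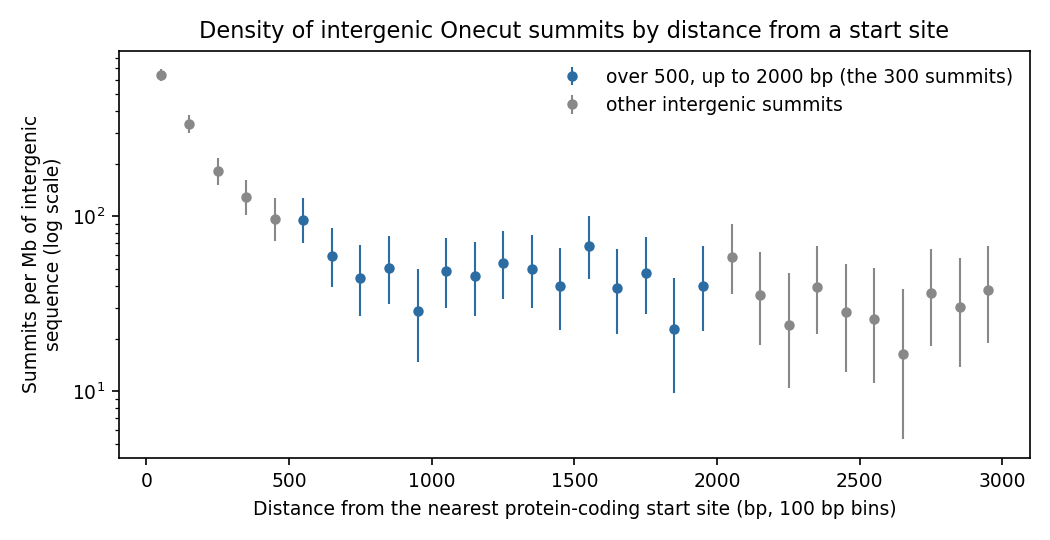
Intergenic summits per Mb of intergenic sequence (log scale) against distance from the nearest protein-coding start site in 100 bp bins, with exact 95% Poisson intervals; blue points are the bins that hold the 300 summits. The density falls steeply up to 500 bp and more slowly from there, with 95.3 per Mb in the first blue bin and 40.2 in the last.

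The summits lay mostly on the upstream side of the gene with the nearest TSS. Of the 300, 264 (88.0%, 83.8 to 91.2) were upstream and 36 were beyond the gene's 3' end. Upstream sequence was also the larger part, so the densities are the fairer comparison. They were 55.3 per Mb (48.8 to 62.4) upstream and 29.1 (20.4 to 40.3) beyond the 3' end. Distal intergenic summits had nearly equal densities on both sides, 23.4 and 22.6 per Mb. Between divergent flanking genes, whose starts face the gap, there were 121 summits at 56.7 per Mb (47.1 to 67.8). Between tandem genes there were 161 at 50.2 (42.7 to 58.5), and between convergent genes, whose ends face the gap, 17 at 25.9 (15.1 to 41.5). The intervals of the divergent and the tandem arrangement overlap, and that of the convergent arrangement lies below both. In distal intergenic sequence the densities were 29.0 per Mb between divergent, 22.6 between tandem and 24.0 between convergent genes.

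Starts of non-coding RNAs played no part in the choice of the 300, and 41 of them (13.7%, 10.2 to 18.02) lay within 500 bp of one, beside 4.98% of all summits. The non-coding class here takes in pseudogenes as well as RNA genes. Sequence of the near class within 500 bp of a non-coding start carried 90.6 summits per Mb (65.0 to 122.9), and the rest of it carried 46.6 (41.1 to 52.6). The share among distal intergenic summits was 10.4%, an odds ratio of 1.37 (0.917 to 2.05; Fisher's exact test, two-sided, adjusted p = 0.233). A difference from distal summits was therefore not called, and the distal class too was denser near non-coding starts, at 67.8 per Mb against 21.4 elsewhere. The median signal of the 41 was 209.1, and that of the other 259 was 144.1.

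By type, the nearest such start was that of an lncRNA for 30 of the 41 summits, of an antisense RNA for 5, of an snRNA for 2, of a snoRNA for 1 and of another gene for 3. Some starts served 2 summits, among them that of asRNA:CR45104. After lncRNA:CR45297, the strongest were lncRNA:CR44679, 326 bp from the CG14186 summit, then lncRNA:CR45540 and asRNA:CR45104, both given above. Uhg4, a host gene of snoRNAs, started 54 bp from the Boot summit. The summit near lncRNA:CR45668 was that of Act5C, a cytoplasmic actin gene, with a signal of 505.0 and replicate values of 283 and 227. The one near lncRNA:CR42657 lay upstream of nej, the fly CBP acetyltransferase gene, with a signal of 504 and replicate values of 207 and 290. The summit near lncRNA:CR45541 lay upstream of the hexokinase gene Hex-A with a signal of 423, and the one near lncRNA:CR45595 upstream of l(3)neo38 with 421. TwdlU, annotated as a pseudogene, started 162 bp from a summit upstream of CG34305 with a signal of 402.

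Small structured RNAs with a start within 250 bp numbered 3. The start of snRNA:7SKa, the RNA that holds the elongation factor P-TEFb inactive, was 121 bp from a summit upstream of CG1142 with a signal of 339, and the replicate values there were 118 and 250.9. The start of snoRNA:Psi18S-176 was 11 bp from a summit upstream of CG46398 with a signal of 150.3 and replicate values of 53.8 and 99.97. The start of snRNA:U2:34ABb, a copy of the spliceosomal U2 RNA, was 23 bp from a summit upstream of kek4 with a signal of 141.2 and replicate values of 71.4 and 65.8. None of these 3 windows held ATYGAT. The peak at the U2 summit overlapped a peak in the thresholded list of replicate 1 but none in that of replicate 2. U2 genes exist in several similar copies, and how the authors placed reads that match more than 1 copy is not given in the sources used here. Of the 300 summits, 30 lay inside a non-coding gene, among them these 3, and 2 lay inside an annotated transposable element. Inside a non-coding gene lay 114 of the 782 distal intergenic summits (14.6%) and 340 of all 6747 summits (5.04%). Inside an annotated transposable element lay 5 of the distal intergenic summits (0.639%) and 24 of all summits (0.356%). Differences in these shares were not tested.

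**Figure D3:**
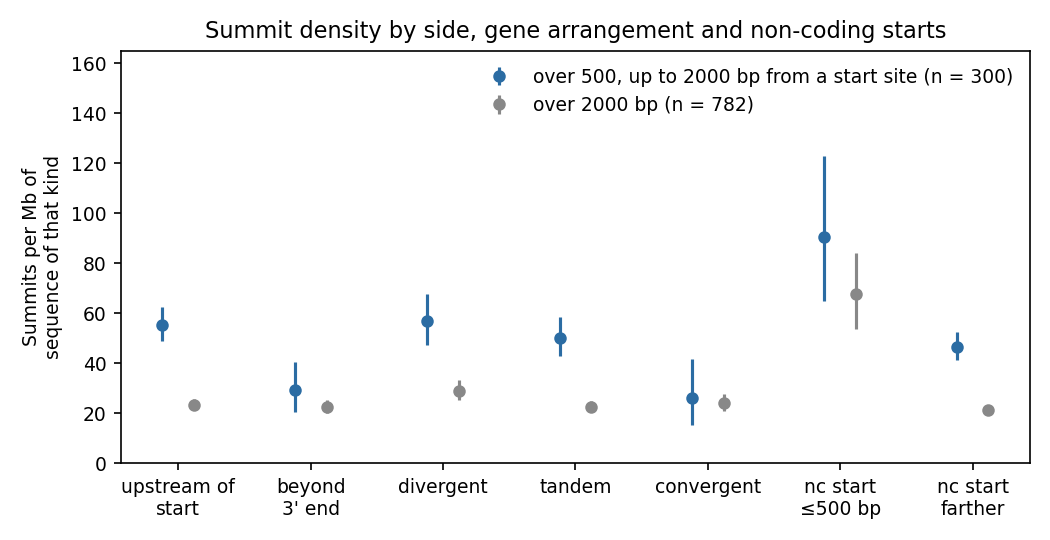
Summits per Mb of sequence of each kind, with exact 95% Poisson intervals, for the near-promoter intergenic class (blue) and the distal intergenic class (grey), by side of the nearest start site, arrangement of the flanking genes and presence of a non-coding (nc) start within 500 bp. The near class is densest near non-coding starts (90.6 per Mb) and lowest between convergent genes (25.9 per Mb).

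ATYGAT was searched on both strands of these windows around all 300 summits, where ATCGAT and ATTGAT are its 2 forms. It was present in 100 of the 300 windows (33.3%, 28.2 to 38.8), beside 38.2% of all summits in the list. Windows of the same size 500 to 1500 bp to either side of the 300 summits held it in 56 of 600 (9.33%), an odds ratio of 4.86 (3.37 to 7.0; Fisher's exact test, two-sided, adjusted p = 1.4e-16 over 40 motif comparisons). Of those 600 flanking windows 242 lay within 500 bp of a protein-coding TSS and 209 in gene bodies, so they are not all intergenic. ATCGAT was in 50 member windows and 17 flanking ones, an odds ratio of 6.86 (3.88 to 12.1; Fisher's exact test, adjusted p = 2.3e-11). ATTGAT was in 52 and 40, an odds ratio of 2.94 (1.89 to 4.55; Fisher's exact test, adjusted p = 2.6e-05). Both forms were present together in 2 windows.

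Against other summits the share with ATYGAT was not called different. The odds ratio was 0.864 (0.672 to 1.11) against promoter summits, of which 36.6% held it, 0.867 (0.655 to 1.15) against distal intergenic summits, with 36.6%, and 0.721 (0.560 to 0.929) against intronic summits, with 40.9%. The adjusted p values were 0.669, 0.704 and 0.0744. With the inner limit moved from 500 to 250 bp, the odds ratio against distal summits was 0.725, with an adjusted p of 0.0412. The 65 members whose peak reached into a promoter window held ATYGAT in 30.8% of cases, and the other 235 in 34.0%.

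The sites gathered at the summit. Within 200 bp to either side, 67 sites had their middle within 20 bp of the summit, and 26 lay in the outer zones at 150 to 190 bp on both sides, which per base is 5.03 times as many. Of the 300 summits, 63 had a site within 20 bp. The site was more frequent with signal: of the 75 strongest summits 31 held ATYGAT, and of each next 75 in order of signal 27, 24 and 18 did. The 100 summits with the site had a median signal of 173.1, and the 200 without it 144.5.

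**Figure D4:**
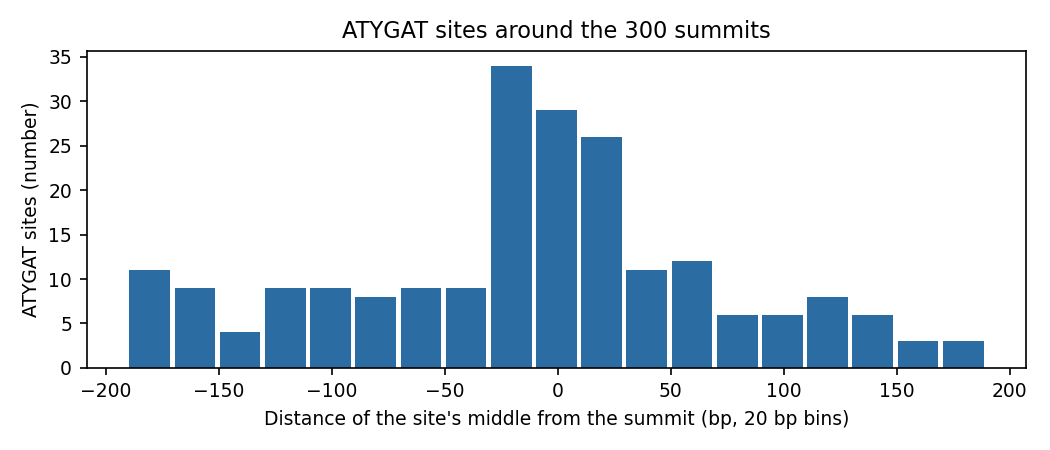
Number of ATYGAT sites by distance of the site's middle from the summit, in 20 bp bins, over all 300 near-promoter intergenic summits. The 3 bins nearest the summit hold 34, 29 and 26 sites, and every bin from 50 bp outward on either side holds 12 or fewer.

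Other motifs fixed for this comparison were counted the same way. TATCGATA, which contains ATCGAT and is the core-promoter element bound by DREF, was in 0 of the 300 windows, which allows a share of up to 1% by the rule of 3 counts. It was in 114 of the 2980 promoter windows (3.83%) and in 1.79% of all windows of the list, and its difference from promoter summits was called (odds ratio 0.0417 with 0.5 added to each cell; Fisher's exact test, adjusted p = 0.000358). All 50 windows with ATCGAT thus held it outside that longer element. TATCGATA was rare in the other classes too, in 2 of 2513 intronic windows (0.0796%) and 5 of 782 distal intergenic ones (0.639%). Neither of these differences was called, nor was that from flanking windows (6 of 600). The 300 were chosen outside promoter windows, so the contrast with promoter summits was not independent of that choice. GGTCACACT, a core-promoter motif bound by M1BP, was also in 0 of the 300 and in 1.95% of promoter windows, with an adjusted p of 0.0708. GAGAG, the site of GAGA factor, was in 12.3% of member windows and 12% of flanking ones, and GATAA, the site of GATA factors, in 21.0% and 18.3%. CAGCTG, an E-box, was in 3.67% of member windows and 7.52% of promoter windows, with an adjusted p of 0.0744. CACACAC was in 3.33% of member windows and 4.50% of flanking ones, and CAGGTAG, the site of Zelda, in 2 of the 300 windows.

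A scan of all 2080 sequences of 6 bases, each counted with its reverse complement, called 7 as more frequent in member windows than in flanks (0.337% of those tested at an odds ratio above 1.5 and an adjusted p below 0.05) and 0 as less frequent. This scan was added after the data had been seen. The first was ATCGAT, and the 6-mers AATCGA with TATCGA and ATCAAT with TATTGA share bases with it or with ATTGAT. The other 2 were AAAATC, in 20% and 10% of windows (Fisher's exact test, adjusted p = 0.0229), and AGAAAA, in 20.7% and 11% (adjusted p = 0.0478). AAAATC ends in ATC, with which ATCGAT and ATCAAT begin, and in the nrv3 window both 6-mers adjoin or overlap the marked site. They are therefore not shown to be separate from ATYGAT. Among the 200 windows without ATYGAT the scan called 0 in either direction. There AGCGCC came first, in 20 of 200 windows and 16 of 544 flanking ones, at an unadjusted p of 0.000318 and an adjusted p of 0.180 by Fisher's exact test.

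The replicates' own lists hold most of these summits when all ranked peaks are counted. A ranked peak overlapped 296 of the 300 in replicate 1 and 297 in replicate 2. Under each replicate's own threshold, 203 were kept in replicate 1 and 228 in replicate 2. Both held 176 (58.7%, 53.02 to 64.1), beside 62.2% of the whole list, while 27 were kept in replicate 1 alone, 52 in replicate 2 alone and 45 in neither. Promoter summits were in both more often, at 66.0%, an odds ratio of 0.730 (0.573 to 0.930; Fisher's exact test, two-sided, adjusted p = 0.0493). That call depended on the list and the limits: at an IDR (irreproducible discovery rate) of 0.001 the odds ratio was 1.11 with an adjusted p of 1.00, and with an inner limit of 250 bp it was 0.836 with 0.222. At that IDR 93.1% of the near class was in both lists, which leaves little room for a difference. The call was kept in the pooled list (odds ratio 0.656; Fisher's exact test, adjusted p = 0.00212). It was also kept with an outer limit of 3000 bp (0.714; Fisher's exact test, adjusted p = 0.0132). In the main comparison the shares in introns and distal sequence were 60.0% and 56.6%, and neither difference was called. By signal, 74 of the 75 strongest summits were in both lists, then 66, 30 and 6 of each next 75.

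The signals of the replicates differed by motif content. This comparison was chosen after the data had been seen. For each summit the ratio of replicate 2 to replicate 1 was taken from the strongest overlapping ranked peak, which 294 summits had in both. The 2 lists may be on different scales, so the level of the ratio carries no meaning and only its difference between groups of summits was compared. Its median was 1.42 for the 98 summits with ATYGAT and 1.11 for the 196 without. In the first group 60 (61.2%) were above the median ratio of the whole list, 1.29, and in the second 63 (32.1%), an odds ratio of 3.33 (2.01 to 5.52; Fisher's exact test, two-sided, adjusted p = 3.6e-06 over 15 comparisons). Replicate 1 medians were alike in both groups, 69.4 and 70.3, while those of replicate 2 were 102.1 and 74.5.

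The other classes showed the same direction, and differences between classes were not tested. The odds ratio was 3.01 among promoter summits, 4.47 in introns and 3.28 in distal intergenic sequence. Among the 176 of the 300 in both thresholded lists it was 5.97 (3.05 to 11.7), and among the 118 others with both values it was 1.56 (0.694 to 3.49; Fisher's exact test, p = 0.310). Among the 153 peaks of the most common width the odds ratio was 1.90 (0.945 to 3.83; Fisher's exact test, p = 0.0762), and among the 141 of other widths, which are mostly the stronger ones, 6.09 (2.87 to 12.9). The part of read depth or enrichment in each library was not tested.

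**Figure D5:**
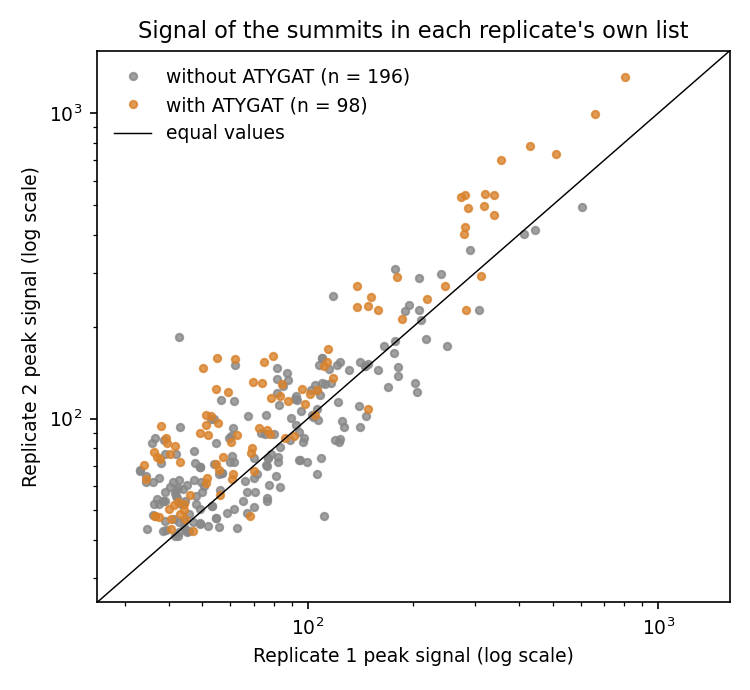
Signal of the strongest overlapping ranked peak in replicate 2 against replicate 1 (both log scales) for the 294 near-promoter intergenic summits with a value in both lists, with ATYGAT (orange, n = 98) and without (grey, n = 196); the line marks equal values. Of the orange points, 60 have a ratio above the whole-list median of 1.29, and of the grey points 63.

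The summits were spread over many genes. The 300 had 274 distinct genes with the nearest TSS, which is 1.96% of the 13945 protein-coding genes on the arms. Of these genes 250 had 1 summit, 22 had 2, and CG13898 and CG5958 had 3 each. Around CG13898 the signals were 786, 429 and 125.1, at distances of 1022, 1148 and 1816 bp, with the second beyond the 3' end. Upstream of CG5958 they were 182.4, 81.7 and 63.5, and the latter 2 peaks overlap each other and share 1 ranked peak in the replicates, with a signal of 36.5 in replicate 1 and 47.8 in replicate 2. Of the 300 peaks, 18 overlapped another of the 300, so the 300 are not all separate stretches of sequence. Another summit of any class lay within 1000 bp of 93 of the 300, a count that was not taken for the whole list. The gene with the nearest TSS had a promoter summit of its own for 87 (29.0%, 24.2 to 34.4). That share was 49.9% for intronic summits and 22.8% for distal intergenic ones. Over all summits it was 67.9%, which counts every promoter summit by definition.

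Of the lists of genes set for this tissue, the one on patterning and signalling had the most genes with such a summit, 9 of 57 (15.8%). The share of all protein-coding genes was 1.96%. Part of the genes own no sequence that could hold such a summit, and counted over those that do, it was 9 of 46 (19.6%) in this list and 274 of 6035 (4.54%) in all. Per Mb of such sequence there were 138.6 summits in this list and 49.9 over all genes. The summit near knrl, which encodes a nuclear receptor-like factor of head and tracheal patterning, had a signal of 392 and replicate values of 158.0 and 226. That near aop, an ETS repressor of receptor tyrosine kinase signalling, had 311, with 181 in replicate 1 and 138.0 in replicate 2. The others had signals from 87.7 to 174.6, and 6 of those 7 were under the median of the 300. No list was tested, and the lists were drawn up with results of these data known.

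Of 49 neural transcription factor genes, 4 had such a summit, which is 4 of the 42 that own such sequence (9.52%, beside 4.54% of all genes that do). Per Mb of such sequence this list had 66.1 summits, beside 49.9 for all genes, and the 66.1 rests on 4 summits. All 4 summits were weaker than the strongest 100. The POU factor gene pdm2 had a signal of 193.2 in the list of both replicates, yet no ranked peak of either replicate overlapped its peak. The summit of nerfin-1, a zinc finger factor that keeps neurons differentiated, had a signal of 133.9 and replicate values of 54.6 and 70.9. Those values are from the ranked lists, and its peak overlapped none in the thresholded list of either replicate. The windows of pdm2 and nerfin-1 both held ATYGAT. Of 30 pan-neuronal and synaptic genes 2 had a summit, or 2 of 18 that own such sequence (11.1%, and 111.2 per Mb). These were nrv3, given above, and ChAT, the acetylcholine synthesis enzyme, at 102.1 with replicate values of 42.5 and 53.4. Of 37 axon guidance and adhesion genes, 1 did (3.85% of 26, and 33.0 per Mb), the semaphorin receptor gene PlexA, at 86.1. The summits of nrv3, ChAT and PlexA all held ATYGAT.

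In the other lists 1 or 2 genes had such a summit, and the percentages that follow are again of the listed genes that own such sequence. The muscle and mesoderm list had 1 gene of 31 (3.70% of 27), bin, a forkhead factor of visceral mesoderm, at 278.0, with replicate values of 109.4 and 157.2. The ribosomal and translation list had 1 of 98 (2.44% of 41), RpS23, at 94.7, where the summit was beyond the 3' end. The ecdysone and hormone list had 1 of 21 (7.69% of 13), the nuclear receptor gene Hr51, at 303.2, with replicate values of 158.3 and 144.5. The cytoskeleton, trafficking and cell cycle list had 2 of 28 (16.7% of 12), Act5C and CycD, a cyclin gene, at 184.3. The chromatin list had 1 of 29 (7.69% of 13), the Polycomb-group gene ph-d, at 231.8, with replicate values of 146.7 and 101.9. The windows of bin, RpS23, Hr51, CycD and ph-d held no ATYGAT, while that of Act5C did. Per Mb of such sequence the muscle list, with 2 summits at bin, had 62.1, beside 49.9 for all genes. The 2 peaks at bin overlap each other and share 1 ranked peak in each replicate, so the 62.1 does not rest on 2 separate stretches of sequence. The other lists of this paragraph had 31.4, 72.0, 204.4 and 78.0 in the order given, each from 1 or 2 summits.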

How the data were processed

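TF ChIP-seq peak lists in dm6 coordinates were used for 2 biological replicates. The authors deposited, per the labels and file headers, ranked and IDR-thresholded lists for each replicate, for both replicates and for pooled data. Each list gives the authors' signal per peak, a score that is the scaled IDR, and, in ranked lists, −log10 of the IDR as deposited. The sources used here name no aligner or peak caller, and they give no depth, so the precision behind each peak is unknown. Chromatin was sonicated (size range 200 to 800, per the labels).

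The conservative list was used (6755 peaks, 8 off the arms left out). The summit was the start plus the deposited offset, 1-based. Genes came from Ensembl release 115 and sequence from Release 6. Python 3.11.15, numpy 2.4.6, pandas 2.3.3 and scipy 1.17.1 were used. Shares have Wilson and densities exact Poisson 95% intervals. Contrasts used Fisher's exact test, two-sided, with Benjamini-Hochberg adjustment and a threshold of 0.05. Classification was checked against a direct search at random positions of the genome, and the motif test on simulated sequence with planted sites. Alternatives were other lists, limits, windows and annotations.

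The summits and lists were chosen with earlier results of these data known. Genes were named by rule: the nearest to the 20 summits of highest signal, those with 3 or more, the 2 strongest of each list, and the non-coding genes at the 10 strongest such summits or, for small RNAs, within 250 bp. Sequences shown are some of the highest with and without ATYGAT off arm 2R, and 1 other window is not reported here.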

Additional observations from a re-analysis of the deposited data

How the results depend on the processing

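Of 91 alternative values, 64 kept their side or range. The number was 173 at an IDR of 0.001 and 485 with an inner limit of 250 bp. The share of all summits was 7.19% with that limit and 6.02% with an outer limit of 3000 bp. Density per Mb was 55.9 in the pooled list, 28.8 at an IDR of 0.001, and 40.1 to 42.3 with 1 replicate left out. The ATYGAT share was 24.7% within 25 bp and 42.0% within 100 bp of the summit; its odds ratio against flanks stayed above 3 throughout (3.02 within 100 bp, 7.23 within 25 bp). The non-coding share was 8.89% outside genes of every biotype, 8% at 250 bp and 21.7% at 1000 bp. The share in both replicates' lists was 52.7% pooled, 93.1% at an IDR of 0.001, and 72.8% to 76.8% with 1 replicate left out, where the list used is itself one of the 2. The upstream share was 92.6% with the 250 bp limit and 81.0% with the 3000 bp limit. The ATYGAT odds ratio against distal summits was 0.725 with the 250 bp limit. The both-replicate odds ratio against promoters was 1.11 at an IDR of 0.001 and 0.836 with the 250 bp limit. The signal odds ratio against distal summits was 1.25 pooled, 1.35 at an IDR of 0.001, 1.33 with the 3000 bp limit, and 1.25 to 1.47 with 1 replicate left out. The cause of these changes was not tested. No paired analysis was possible because there is 1 group. The last 2 contrasts and the TATCGATA contrast were varied after seeing the data. Depth per peak is unknown.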

Other observations

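The 6 summits without a value in 1 or both ranked replicate lists had signals from 36.0 to 193.2 in the list of both replicates, and pdm2 was the 1 without a value in either. A summit 257.3 in signal upstream of ed lay in an INE-1 element, and 1 of 84.9 near Lamp1 lay in another annotated element. The start of lncRNA:flam, the flamenco piRNA locus, was 196 bp from a summit near DIP1 with a signal of 238.3.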
